A study of Homo sapiens with 8 samples.

Results

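The alpha-globin cluster is a group of genes near the end of the short arm of chromosome 16 that encode the alpha-like chains of hemoglobin. Its 5 genes, HBZ, HBM, HBA2, HBA1 and HBQ1, were taken by gene name from the annotated genes of the deposited read count tables. They are 5 of 20565 annotated genes and hold 71 of 506946 transcript models. The tables came from direct RNA sequencing on nanopore instruments, in which native RNA molecules are read without conversion to cDNA or amplification. Total RNA of 3 human cell lines was sequenced: K562 in 2 libraries, HepG2 in 3 and GM12878 in 3, with no treatment or genetic change named in the labels. K562 is known as a line from a myelogenous leukaemia that can make embryonic and fetal globins, although its cell type is labelled as lymphoblastoid, as that of GM12878 is. HepG2 is a hepatocellular carcinoma line and GM12878 a virus-transformed B lymphoblastoid line, so each line stands for 1 person's cells only. Whether the libraries of a line come from separate cultures is not in the labels; p-values measure how far these particular libraries vary, a spread that may be technical.

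Hemoglobin carries oxygen in red blood cells and is built from pairs of alpha-like and beta-like chains, each with a heme group. Along the chromosome the alpha-like genes stand in the order in which they are used during development. HBZ encodes the zeta chain of the embryo, and HBA2 and HBA1 encode the same alpha chain, used in the fetus and the adult. HBM encodes the mu chain and HBQ1 the theta chain, neither of which is known to form a major hemoglobin. The main enhancers of the cluster lie in introns of the neighbouring gene NPRL3.

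All 5 identifiers matched GENCODE release 29, which places the genes on the forward strand of chromosome 16 of GRCh38. HBZ (ENSG00000130656.4) lies at chr16:152687-154503 and HBM (ENSG00000206177.6) at chr16:153892-166768, so the start of HBM overlaps the end of HBZ. HBA2 (ENSG00000188536.13) lies at chr16:172876-173710, HBA1 (ENSG00000206172.8) at chr16:176680-177522 and HBQ1 (ENSG00000086506.2) at chr16:180453-181181. The first 60 coding bases of each gene with reads, all in its first exon, are shown because they tell how far the chains differ and why reads of HBA1 and HBA2 are hard to tell apart. They are taken from the main GENCODE release 29 transcript of each gene, and capitals mark bases that differ from HBA1 at the same position.
HBZ: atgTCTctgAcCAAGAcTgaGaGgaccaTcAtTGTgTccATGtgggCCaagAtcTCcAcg
HBA2: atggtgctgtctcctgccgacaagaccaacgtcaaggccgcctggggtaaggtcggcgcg
HBA1: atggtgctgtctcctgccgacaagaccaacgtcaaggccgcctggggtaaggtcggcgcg
HBQ1: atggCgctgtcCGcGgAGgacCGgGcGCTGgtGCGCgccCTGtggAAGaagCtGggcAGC
These stretches lie at chr16:152910-152969 for HBZ, chr16:172913-172972 for HBA2, chr16:176717-176776 for HBA1 and chr16:180487-180546 for HBQ1. HBZ differs from HBA1 at 27 of the 60 bases and HBQ1 at 28, and HBA2 at 0.

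Over the whole coding sequence of 429 bases, HBA1 and HBA2 were identical, as were the 37 bases before the start codon. They differ only after the stop codon, where 111 bases of HBA1 and 110 of HBA2 align with 20 differing columns, an identity of 82.0%. Across their spliced transcripts the identity was 96.5%. No source used here gives how reads were assigned between them, so the split between HBA1 and HBA2 is uncertain and their sum is given beside it. HBZ shared 69.6% of aligned coding positions with HBA1, HBQ1 shared 73.5% and HBM 63.3%.

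Libraries held 142837 and 313454 reads in K562, 248490 to 461497 in HepG2 and 70374 to 176118 in GM12878. Levels are counts per 1000000 reads (CPM), with library sizes scaled by the trimmed mean of M values (TMM). Where a line had 0 reads, a floor of 3 counts over the line was used, 6.76 CPM in K562, 3.76 in HepG2 and 7.63 in GM12878. Folds given as at least a value divide the mean of the other line by this floor and leave out counting error in that mean. These floors and all 95% intervals of shares (exact Clopper-Pearson) cover counting error only. Erythroid markers summed to 1155 to 1380 CPM in K562 libraries, with reads for 12 of 12 markers over the line and 11 of 12 in replicate 1. They summed to 26.6 to 51.6 CPM in HepG2 (2 of 12) and to 0 to 11.6 CPM in GM12878 (2 of 12). In K562, SLC4A1 had 2 reads and EPB42 and EPOR 3 each, and EPOR was higher in HepG2 (14.4 CPM) than in K562 (8.21 CPM). Hepatocyte markers summed to 0 CPM in both K562 libraries, 103873 to 124833 CPM in HepG2 and 0 to 23.3 CPM in GM12878. B cell markers summed to 3.45 to 6.49 CPM in K562, 188 to 287 CPM in HepG2, mostly CD74, and 8998 to 9733 CPM in GM12878. Myeloid markers reached 3.45 CPM in K562, 1569 to 1963 CPM in HepG2, where LYZ had reads, and 5.82 CPM in GM12878, and megakaryocyte markers, 2 of 5 of which were analysed, at most 20.7 CPM in K562 and 0 in the other lines.

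Transcripts of the alpha cluster were plentiful in K562 and hardly read elsewhere. Reads of the 5 genes made up 0.637% of all reads in K562 replicate 1 (95% interval 0.596 to 0.680%) and 0.431% in replicate 2 (0.409 to 0.455%). Summed over the cluster, the level was 5905 and 4664 CPM in K562, against 14.8, 21.1 and 7.37 CPM in HepG2 and 0 CPM in each GM12878 library. In K562 the zeta gene of the embryo and the alpha genes of later life were read together, with theta far lower and mu at 0. A library pools many cells, so fewer cells with a transcript and less of it per cell cannot be told apart.

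HBZ, the embryonic zeta gene, had 339 and 521 reads in K562, against 0 in all 3 HepG2 and all 3 GM12878 libraries. Its level was 2200 and 1797 CPM in K562 (1998 ± 284 CPM, SD, n = 2), which placed it 85th of 4778 tested genes. Against the floors, HBZ was at least 532-fold higher in K562 than in HepG2 and at least 262-fold higher than in GM12878. In edgeR's quasi-likelihood test, after Benjamini-Hochberg adjustment over the tested genes, p was 3.73e-26 against HepG2 and 4.68e-23 against GM12878. The pseudogene HBZP1, next to HBZ in the cluster, had 1 read in K562 and 1 in HepG2, so few reads of the zeta type were assigned to it.

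HBA1, the second of the adult alpha genes along the chromosome, had 395 and 647 reads in K562, against 1, 0 and 0 in HepG2 and 0 in every GM12878 library. That was 2563 and 2232 CPM in K562 (2397 ± 234 CPM, SD, n = 2) and 0.987 ± 1.71 CPM in HepG2 (SD, n = 3). The single HepG2 read belonged to a model of 4 exons and 590 bases with an unannotated splice site. HBA1 was at least 314-fold higher in K562 than in GM12878, and 1874-fold higher than in HepG2 with a counting interval of 336 to 74074. By the same edgeR test the adjusted p was 1.28e-27 against HepG2 and 1.57e-24 against GM12878.

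HBA2, which in human red cell precursors is known as the stronger of the alpha genes, was the weaker one here. It had 166 and 155 reads in K562 and 0 in every HepG2 and GM12878 library. Its 1077 and 535 CPM in K562 (806 ± 384 CPM, SD, n = 2) were at least 214-fold above HepG2 and at least 106-fold above GM12878. The edgeR adjusted p was 1.35e-14 against HepG2 and 2.49e-12 against GM12878, but the Wald test of DESeq2 did not call it, with adjusted p of 0.0507 and 0.122 in the same order. Over the 16 alternatives the adjusted p of HBA2 ran from 1.22e-77 to 0.0507 against HepG2 and from 4.24e-55 to 0.122 against GM12878, and DESeq2 alone lost the call. Reads of HBA2 were 29.6% of HBA1 and HBA2 reads in K562 replicate 1 (95% interval 25.8 to 33.6%) and 19.3% in replicate 2 (16.6 to 22.2%), a share of 24.5 ± 7.26% (SD, n = 2). HBA1 thus held more reads in both K562 libraries, subject to the uncertain split.

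Counted together, HBA1 and HBA2 had 3640 and 2767 CPM in K562 (3203 ± 618 CPM, SD, n = 2), a level that does not depend on the split. As a single row in the fit they were higher in K562 with an adjusted p (edgeR) of 9.33e-29 against HepG2 and 7.81e-26 against GM12878, and the level was at least 420-fold that of GM12878. In reads, HBZ had 339 and 521 in K562 replicates 1 and 2, against 561 and 802 for HBA1 and HBA2 summed. Per kilobase of model length, HBZ ran at 0.464 and 0.499 of their summed level (0.482 ± 0.0253, SD, n = 2). Each read comes from 1 RNA molecule here, so division by length lowers the longer HBZ relative to its read count. Zeta was below the summed alpha genes in both K562 libraries.

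HBQ1, the theta gene, was the one member read in more than a stray molecule outside K562. It had 10 and 29 reads in K562, 4, 4 and 2 in HepG2 and 0, 0 and 0 in GM12878. Its level was 64.9 and 100.04 CPM in K562 (82.5 ± 24.9 CPM, SD, n = 2), against 11.8, 21.1 and 7.37 CPM in HepG2 (13.4 ± 7.02 CPM, SD, n = 3). K562 and HepG2 libraries did not overlap, and HBQ1 was 6.13-fold higher in K562 by the means, with a fitted log2 change of 2.70 (approximate standard error 0.55) and an adjusted p (edgeR) of 4.07e-05. Against GM12878 it was at least 10.8-fold higher in K562, with an adjusted p (edgeR) of 2.82e-06.

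HBQ1 was called higher in HepG2 than in GM12878, with an adjusted p (edgeR) of 0.0214, and its HepG2 mean was 1.76 times the GM12878 floor. Every HepG2 library had reads where no GM12878 library did. This call rests on 10 reads. It was lost without GM12878 replicate 1 (adjusted p 0.0725), without GM12878 replicate 2 (0.0907) and with DESeq2 (0.0554); over the 15 alternatives that gave a value the adjusted p ran from 0.0158 to 0.0907. With only HepG2 and GM12878 in the fit, HBQ1 did not pass the filter on low counts. Of the 12 erythroid markers, NFE2 with 18 reads and EPOR with 11 were read in HepG2, and GATA1, KLF1, TAL1, ALAS2 and the other markers were at 0. Their part in the HBQ1 reads was not tested.

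HBM, the mu gene, had 0 reads in all 8 libraries. In K562 a count of 0 allows up to 21 CPM in replicate 1 and 9.57 CPM in replicate 2, per all reads of the library. These are upper limits from the floor of 3 counts, so mu RNA below them could have been present without a read. The tables used list 1 HBM model, a new combination of annotated splice sites with 4 exons and 687 bases, and known HBM transcripts were not analysed here.

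**Figure D1:**
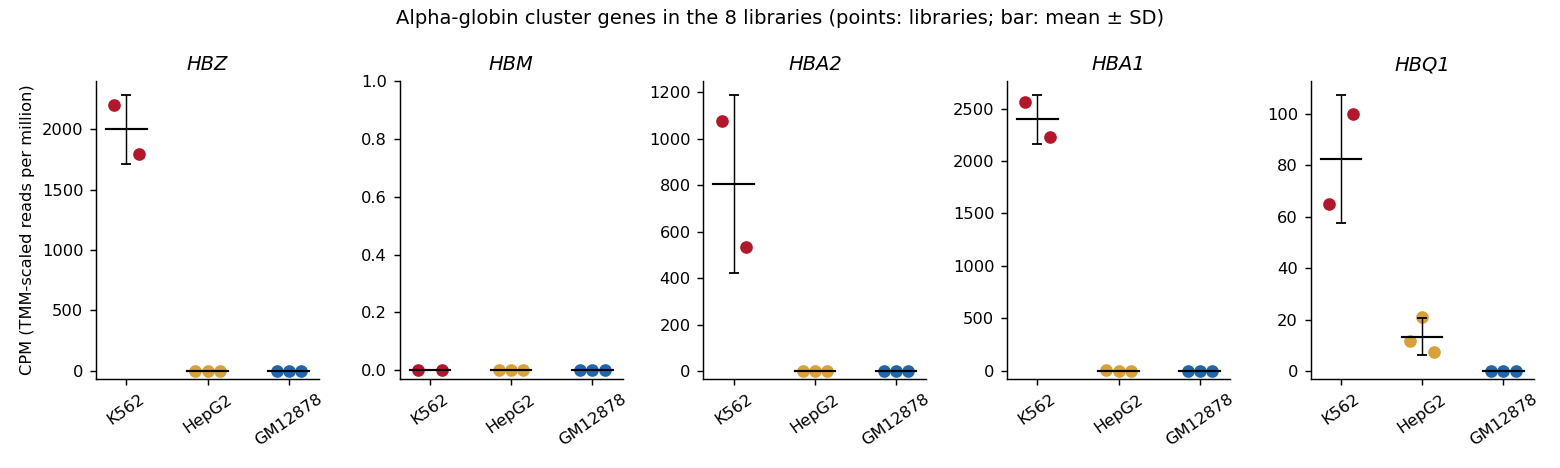
TMM-scaled CPM (linear axes, each with its own scale) of the 5 alpha-cluster genes by line, K562 (n = 2), HepG2 (n = 3) and GM12878 (n = 3); points are libraries, horizontal bars means and error bars SD. HBZ, HBA2 and HBA1 stand at 535 to 2563 CPM in K562 libraries and at or near 0 in the other lines, HBQ1 has a low level in HepG2 as well, and HBM is at 0 throughout.

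Of the 5 members, 4 passed the filter on low counts, each with K562 reads, and HBM did not. All 4 tested members were called higher in K562 against GM12878, where 13.9% of the 4778 tested genes were called higher and 28.7% in either direction. All 4 were called higher in K562 against HepG2, where 17.4% of tested genes were, and 44.1% in either direction. In HepG2 against GM12878, 1 of the 4 was called higher, HBQ1, where 28.0% of tested genes were, and 49.1% in either direction. A gene that passed the filter only through its K562 reads had to be high in K562, so these counts describe the members and are no added evidence. The K562 comparisons share their K562 libraries, and all comparisons come from 1 fit.

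The make-up of the cluster's reads was close in both K562 libraries for zeta and less so for HBA1 and HBA2 taken singly. HBZ took 37.3% of alpha-cluster reads in replicate 1 (95% interval 34.1 to 40.5%) and 38.5% in replicate 2 (35.9 to 41.2%), a mean of 37.9 ± 0.907% (SD, n = 2). HBA1 took 43.4% and 47.9%, HBA2 18.2% and 11.5%, and HBQ1 1.10% and 2.14%. As the reads were assigned, the order HBA1, HBZ, HBA2, HBQ1 held in both K562 libraries. The places of HBA1 and HBA2 beside HBZ depend on the uncertain split. Together HBA1 and HBA2 took 61.6% in replicate 1 (58.4 to 64.8%) and 59.3% in replicate 2 (56.6 to 62.0%). For HBM the upper limit of the share was 0.405% in replicate 1 and 0.272% in replicate 2.

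As the reads were assigned, HBA2 was the member whose K562 libraries differed most relative to counting error. Its CPM in replicate 1 was 2.01 times that in replicate 2 (counting interval 1.61 to 2.52), against 1.22 times for HBZ (1.06 to 1.41), 1.15 times for HBA1 (1.01 to 1.30) and 0.649 times for HBQ1 (0.282 to 1.37). For HBA1 and HBA2 summed it was 1.32 times (1.18 to 1.47), a value that must lie between those of the 2 genes. The HBA2 value is subject to the uncertain split, and the cause of its difference was not tested. Of 212 genes with at least 100 reads in each K562 library, 12 (5.66%) were at least 2-fold apart, and HBA2 had the 5th highest ratio of replicate 1 to replicate 2. HBG1 and HBG2 are another pair of globin gene copies, but they were not aligned here and their models differ more in length. Weighted by reads, these models averaged 784 and 614 bases in replicate 1, against 576 for HBA1 and 570 for HBA2. HBG1 took 44.1% of HBG1 and HBG2 reads in replicate 1 (42.6 to 45.7%) and 44.5% in replicate 2 (43.3 to 45.6%). The K562 pair also stood further apart over all genes than any pair of the other lines, with a chi-square per degree of freedom of 3.53, against 1.40 to 2.22 in HepG2 and 1.23 to 1.39 in GM12878.

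**Figure D2:**
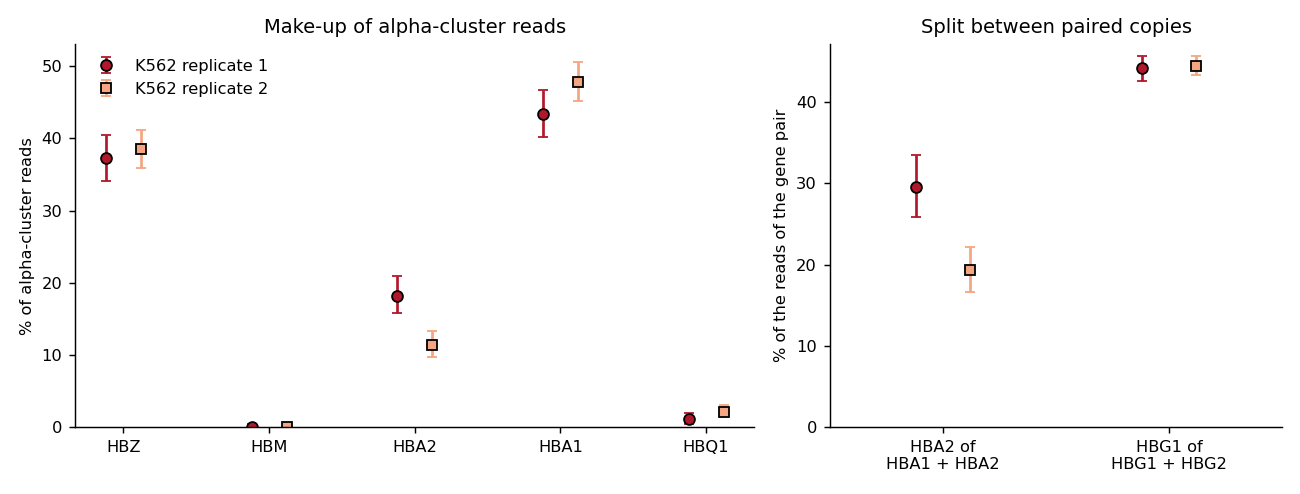
Left, share (%) of alpha-cluster reads taken by each gene in K562 replicates 1 and 2; right, share (%) of the reads of each pair of gene copies taken by HBA2 and by HBG1; error bars are exact 95% counting intervals. The HBZ shares, 37.3% and 38.5%, have overlapping intervals, whereas the HBA2 shares of its pair, 29.6% and 19.3%, do not.

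Reads of the members were mostly full matches to annotated transcripts. TALON, the long-read annotation tool that made the tables, classes each model as known, an incomplete splice match (a stretch of a known transcript that lacks exons at an end), a new combination of annotated splice sites, a model with an unannotated splice site, or genomic (overlapping a gene without matching its splicing). Known models held 98.2% of HBA1 and HBA2 reads in K562 replicate 1 (95% interval 96.7 to 99.1%) and 98.8% in replicate 2 (97.7 to 99.4%). For HBZ the known share was lower, 88.2% (84.3 to 91.4%) and 89.4% (86.5 to 91.9%), outside the intervals of the alpha genes in both libraries. HBQ1 had 10 of 10 and 29 of 29 K562 reads in its known model.

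Across all annotated genes, known models held 47.7% and 47.8% of K562 reads, and 45.8% and 44.8% among models under 800 bases, a range that includes the main globin models. That limit is on the length of the model itself, so incomplete stretches of longer transcripts can fall under it. It is therefore not a set of genes matched to the globins by transcript length. Incomplete splice matches made up 0% of HBA1 and HBA2 reads (upper limits 0.655% and 0.459%), 1.77% and 1.15% of HBZ reads, and 20.8% and 21.2% of reads of models under 800 bases. No read of a member fell in a genomic model, a class with 9.82% and 9.72% of the reads of all annotated genes. With 2 libraries of 1 line these shares were set side by side and not tested.

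**Figure D3:**
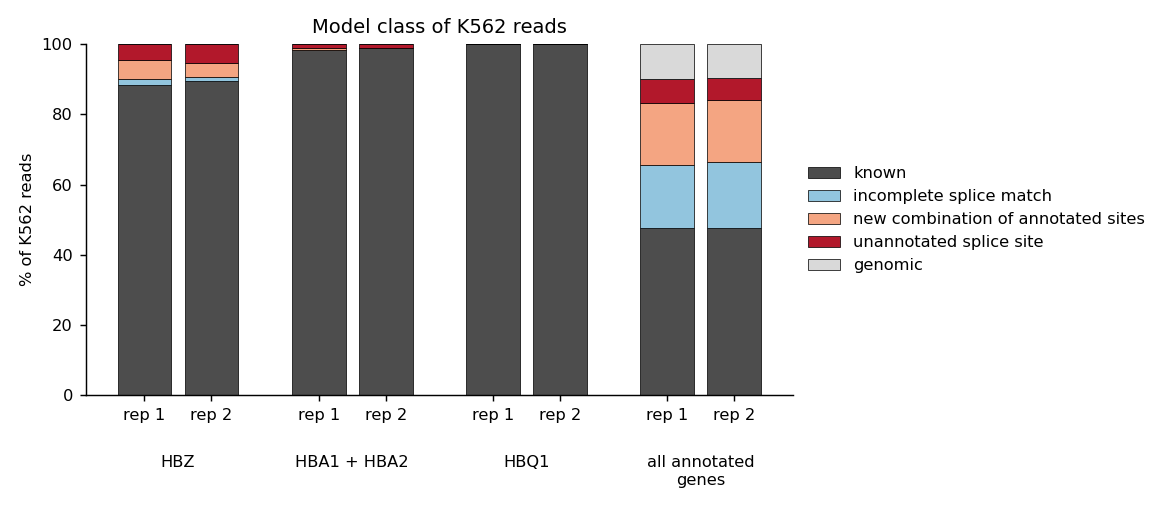
Stacked bars of the share (%) of K562 reads in each TALON model class for HBZ, HBA1 with HBA2, HBQ1 and all annotated genes, replicates 1 and 2. Known models fill 88.2% to 100% of the bars of the members and 47.7% and 47.8% of those of all genes, and the incomplete class is near absent from the members.

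A single known model carried most reads of each gene. That of HBZ (ENST00000252951.2, 3 exons, 755 bases) had 299 and 466 reads in K562. The main model of HBA1 (ENST00000320868.9, 577 bases) had 366 and 613 K562 reads and that of HBA2 (ENST00000251595.11, 576 bases) had 150 and 149. The main model of HBQ1 (ENST00000199708.2, 536 bases) had 10 and 29. These 4 were the only models with at least 5% of their gene's reads over both K562 libraries together. In replicate 1 alone, an HBA2 model with a shorter first exon had 6.02% and an HBZ model of 747 bases had 5.31%. In HepG2, the main HBQ1 model had 4, 3 and 2 reads, and 1 more read fell in a model of 2 exons and 620 bases that combines annotated splice sites.

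All 4 models share the exon plan known for globin genes. Their 3 exons hold 95, 205 and 126 coding bases before the stop codon, and the middle exon is 205 bases long in each. The introns differ far more: the first spans 887 bases in HBZ, 117 in HBA2, 117 in HBA1 and 84 in HBQ1, and the second 175, 142, 149 and 109 bases.

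Minor models were few, and those named here were chosen after their values were seen. A model of HBA1 with a shorter first exon (ENST00000397797.1) had 16 and 15 reads in K562, and its HBA2 counterpart (ENST00000397806.1) had 10 and 3. Their first exons of 59 and 69 bases lie inside that of the main model, of 132 bases, and end earlier, so that the first intron spans 166 bases in place of 117. None of those exon bases is annotated as coding, and the annotated coding sequence starts in the second exon. These short-exon models together held 4.63% of HBA1 and HBA2 reads in replicate 1 (3.05 to 6.72%) and 2.24% in replicate 2 (1.34 to 3.52%). Models annotated as keeping the first intron had 7 reads in K562 replicate 1 and 10 in replicate 2 for HBA1 (ENST00000472694.1), and 1 and 2 for HBA2 (ENST00000482565.1). They made up 1.43% and 1.50% of the pair's reads.

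HBZ reads were spread over more kinds of model. Of its 20 models 11 had reads, all in K562. A model of 747 bases with a new combination of annotated splice sites had 18 and 21 reads, one of 759 bases with an unannotated splice site had 5 and 15, and another of that kind with 743 bases had 9 and 11. For HBA1, 17 of 33 models had reads, of which 10 with K562 reads had an unannotated splice site, 8 of those with a single read.

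**Figure D4:**
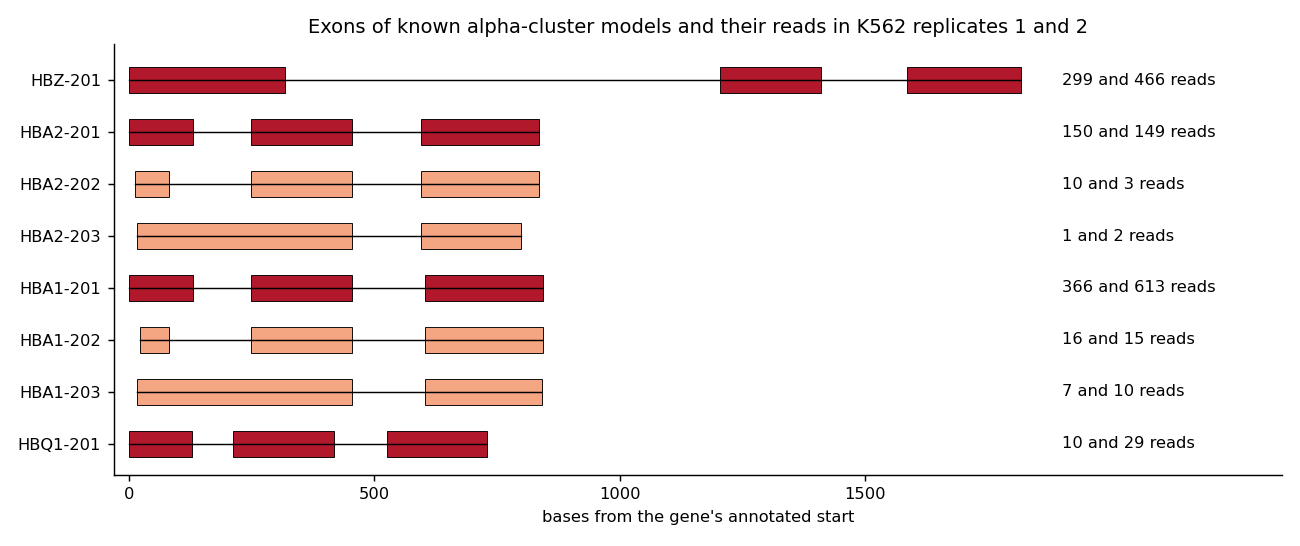
Exons (boxes) and introns (lines) of the known alpha-cluster models with at least 3 K562 reads (GENCODE names at the left), drawn to scale in bases from each gene's annotated start, with the reads of K562 replicates 1 and 2 at the right. The main model of each gene (dark) carries most reads, from 10 and 29 for HBQ1 to 366 and 613 for HBA1, and that of HBZ has the longest first intron, 887 bases.

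Transcripts of the alpha-like genes were outnumbered by those of the beta-like genes in K562. Genes of the beta-globin cluster on chromosome 11 (HBE1, HBG2, HBG1, HBD and HBB) took 3.38% and 2.71% of all K562 reads. The ratio of alpha-cluster to beta-cluster reads was 0.189 and 0.159 in the K562 libraries (0.174 ± 0.0209, SD, n = 2), and 0.201 and 0.168 per kilobase of model length. Alpha-like reads were thus 15.9% of all cluster globin reads in replicate 1 (95% interval 14.9 to 16.8%) and 13.7% in replicate 2 (13.1 to 14.4%). HepG2 and GM12878 had 0 reads of the beta cluster in all libraries, so the HBQ1 reads of HepG2 had no beta-like counterpart.

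The excess of beta-like over alpha-like RNA held for the embryonic genes and for the later ones. Per kilobase of model length, the embryonic beta-like gene HBE1 (epsilon) was at 2.78 and 3.49 times the level of embryonic HBZ in K562 replicates 1 and 2. The fetal genes HBG1 and HBG2 (gamma) together were at 6.08 and 7.40 times the level of HBA1 and HBA2. These ratios differ from those of the reads themselves, each of which comes from 1 RNA molecule. In reads, HBE1 had 778 and 1501 against 339 and 521 for HBZ. HBG1 and HBG2 had 4034 and 6992 against 561 and 802 for HBA1 and HBA2. In reads per 1000000 reads and per kilobase, HBZ was at 3170 and 2215, HBA2 at 2037 and 860, HBA1 at 4799 and 3576, and HBQ1 at 131 and 173. HBE1 was at 8803 and 7736, HBG2 at 25705 and 20190 and HBG1 at 15896 and 12634. The lowest of these 3 beta-like genes was above the highest alpha-like gene in both K562 libraries, while HBD and the adult HBB were below HBQ1 in both.

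**Figure D5:**
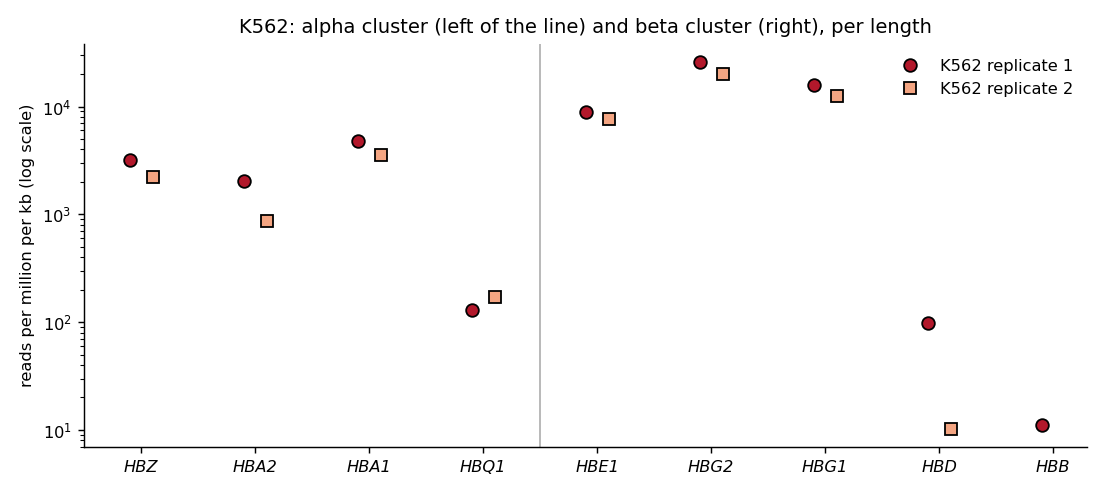
Level of the globin genes with reads in K562, in reads per 1000000 reads and per kilobase of read-weighted model length (log axis), for replicates 1 and 2, alpha cluster left of the line and beta cluster right. HBE1, HBG2 and HBG1 lie at 7736 to 25705, above HBA1 and HBZ at 2215 to 4799; HBB has no point in replicate 2 because it had no reads there.

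Of the 5 genes of the beta cluster list 3 were tested, HBE1, HBG1 and HBG2. All 3 were called higher in K562 against HepG2 and against GM12878, where 17.4% and 13.9% of all tested genes were. None was called in HepG2 against GM12878, where 49.1% were called in either direction. These 3 genes had reads in K562 only and passed the filter through them, so their calls are no added evidence. Globins outside the clusters had few reads. CYGB (cytoglobin) had 0 in K562, 10 in HepG2 and 0 in GM12878, NGB (neuroglobin) 2 reads in GM12878 and MB (myoglobin) 1 read there, and none of the 3 was tested.

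Of 15 listed neighbours of the cluster in the 16p13.3 band, 14 were analysed and 10 were tested, and all 10 had reads in all 3 lines. In K562 against HepG2, POLR3K was called higher and TMEM8A and DECR2 lower, where 44.1% of all tested genes were called in either direction. In K562 against GM12878, NME4 and FAM234A were called higher and none lower, where 28.7% of all tested genes were called in either direction. The FAM234A call rests on 1 library, since K562 replicate 1 had 6.49 CPM and replicate 2 had 75.9 CPM, against 13.33, 11.6 and 0 CPM in GM12878, and the groups overlap. The median log2 change of the 10 was -0.02 against HepG2 and 0.70 against GM12878, where those of all tested genes were -0.07 and 0.00. In HepG2 against GM12878, 4 were called higher and 1 lower, where 49.1% of all tested genes were called in either direction. With 10 genes tested, these counts do not set the neighbours apart from other genes.

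NPRL3, a subunit of a complex that restrains mTORC1 signalling and the host of the cluster's enhancers, was named for that role after its values were seen. It had 79.8 ± 57.8 CPM in K562 (SD, n = 2), 69.7 ± 12.9 CPM in HepG2 and 74.4 ± 21.2 CPM in GM12878 (SD, n = 3 each). Its log2 change was 0.32 against HepG2 (adjusted p 0.518 by edgeR) and 0.33 against GM12878 (adjusted p 0.634), so no difference passed the test. NME4, a mitochondrial nucleoside diphosphate kinase, averaged 260 ± 18.4 CPM in K562, 410 ± 37.7 CPM in HepG2 and 11.1 ± 4.56 CPM in GM12878. MRPL28, a protein of the mitochondrial ribosome, averaged 276 ± 87.3 CPM in K562, 181 ± 45.3 CPM in HepG2 and 164 ± 41.3 CPM in GM12878, and neither K562 difference was called. MPG, a DNA repair glycosylase, with 157 ± 16.8 CPM in K562, 190 ± 40.4 CPM in HepG2 and 138 ± 9.75 CPM in GM12878, and SNRNP25, a spliceosome protein, with 212 ± 104 CPM, 115 ± 20.2 CPM and 119 ± 12.6 CPM in the same order, were not called in any comparison.

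Of 14 listed transcription factors and cofactors known to act on globin genes, 13 were analysed and 9 were tested. In K562 against HepG2, 7 were called higher, where 17.4% of all tested genes were, and in K562 against GM12878 7 were, where 13.9% were; none was called lower. GATA1, TAL1, LMO2 and GFI1B had reads in K562 libraries only and so passed the filter through them. The remaining genes called higher, KLF1, NFE2 and MYB, had few reads outside K562. KLF1 had 2 and MYB 4 in GM12878, and NFE2 had 18 in HepG2. All 7 calls thus rest on genes that are high in K562 and are no added evidence. ATRX, which was not tested, had 0 reads in K562. The median log2 change of the 9 was 7.0 against HepG2 and 6.87 against GM12878, fitted values that rest in part on lines at 0; with those genes at their bound it was 4.28 and 3.87. GATA1, the leading erythroid factor, had 312 ± 65.6 CPM in K562 (SD, n = 2) and 0 in HepG2 and GM12878, and NFE2, which binds the enhancers, had 297 ± 43.6 CPM in K562, 22.3 ± 9.49 CPM in HepG2 and 0 in GM12878. KLF1, an activator best known for adult beta-globin, had 276 ± 4.89 CPM in K562, 0 in HepG2 and 4.16 ± 3.63 CPM in GM12878. E2F4, a cell cycle factor with a role in red cell maturation, had 58.3 ± 9.29 CPM in K562, 52.0 ± 12.7 CPM in HepG2 and 96.0 ± 18.7 CPM in GM12878 and was not called. In HepG2 against GM12878, 2 regulators were called higher and 1 lower, where 28.0% of all tested genes were called higher and 21.1% lower.

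Genes that supply heme or handle free globin chains were split. Of 13 listed, 9 were tested. In K562 against HepG2, 5 were called higher and 1 lower, where 17.4% of all tested genes were called higher and 26.7% lower. Against GM12878, 6 were called higher and none lower, where 13.9% of all tested genes were called higher and 14.8% lower. The median log2 changes were 1.47 and 1.67, where those of all tested genes were -0.07 and 0.0. The heme synthesis enzyme UROD was called higher in K562 in both comparisons. It had 782 ± 86.6 CPM in K562 (SD, n = 2), 138 ± 13.4 CPM in HepG2 and 82.2 ± 5.82 CPM in GM12878 (SD, n = 3 each). EIF2AK1, the heme-regulated kinase that slows globin translation when heme is short, had 185 ± 69.5 CPM in K562, 170 ± 37.8 CPM in HepG2 and 63.8 ± 33.0 CPM in GM12878, and was called higher in K562 against GM12878 but not against HepG2. HSPA8, a general chaperone and the most abundant gene of the list, had 1625 ± 1024 CPM in K562, 960 ± 31.8 CPM in HepG2 and 2406 ± 289.8 CPM in GM12878 and was not called in either K562 comparison. In HepG2 against GM12878, 2 of the list were called higher and 1 lower, where 28.0% of all tested genes were called higher and 21.1% lower.

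AHSP, the chaperone that holds free alpha chains until they pair with beta-like chains, was low even in K562. It had 2 and 7 reads there, 18.6 ± 7.90 CPM (SD, n = 2), and 0 in HepG2 and GM12878, and did not pass the filter; it is named for its role after its values were seen. ALAS2, the erythroid enzyme that starts heme synthesis, also named afterwards, had 78.6 ± 1.05 CPM in K562 and 0 in HepG2 and GM12878.

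The genes whose pattern was most like that of HBZ were sought among 2898 tested genes with at least 50 CPM in K562, by the Pearson correlation of log2(CPM + 1) over the 8 libraries. The 8 libraries come from only 3 lines and differ in depth, and libraries of a line share its on or off state. In all, 118 genes reached 0.9 for HBZ and 112 for HBA1 with HBA2. Nearest to HBZ were GAGE12C, GAGE12F, PRSS21, SSX1 and AL713998.1, with correlations of 0.99997 or more. Nearest to HBA1 with HBA2 were GAGE12C, SSX1, AL713998.1, GAGE12D and GAGE12F, at 0.992, all of them with 0 reads in HepG2 and GM12878. GAGE genes are near-identical copies whose reads may be split among them.

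HBQ1 followed other genes. Its correlation with HBZ was 0.758 and with HBA1 and HBA2 0.787 over the same 8 libraries. The genes nearest to it, sought after the other results were seen, were ADAMTSL4 and PLCD1 at 0.996, ICAM4 at 0.985, RAB31 at 0.984 and GRB10 at 0.983, each with 7 to 20 reads in HepG2 and 0 in GM12878. ICAM4 carries a red cell blood group antigen.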

How the data were processed

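The submitters' processing notes name minimap2 and hg38 for the direct RNA reads. The deposited tables are abundance tables of TALON, per the labels, and its version, annotation and filters are not given in the sources used here. Values are raw read counts per transcript model, not normalized, per the file headers, and the length and number of exons of each model are other deposited values.

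Counts were summed by annotated gene, filtered with filterByExpr (4778 genes kept) and tested with edgeR 4.0.16 (R 4.3.3; TMM, glmQLFit robust, glmQLFTest, two-sided) in 1 fit over all 8 libraries, with Benjamini-Hochberg adjustment over all tested genes per comparison. Calls needed an adjusted p under 0.05 and an absolute log2 change of at least 1. DESeq2 1.42.0 was an alternative. The approximate standard error is the log2 change over the square root of F. The procedure was tested on simulated data. Sequences, exons and coordinates come from GENCODE 29; alignments were global (Biopython 1.88). Members, lists, markers and tests were chosen with earlier results of these data known. Named genes were all members, models with at least 5% of a member's K562 reads, up to 4 most abundant tested genes per list, and the 5 genes most like HBZ and HBA1 with HBA2; others are marked where named. Some listed genes are not reported here. Alternatives covered scaling, tool, low-count filter, model classes, copies summed, lines in the fit, a replicate block and each library left out. No library pair was counted as a repeat.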

Additional observations from a re-analysis of the deposited data

How the results depend on the processing

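The 8 results of HBZ, HBA2, HBA1 and HBQ1 in K562 against HepG2 and against GM12878 were recomputed under 16 alternatives each, 128 values in all. In 126 the direction and call were as reported, none reversed, and 2 lost the call, both HBA2 with DESeq2 (adjusted p 0.0507 against HepG2 and 0.122 against GM12878; the cause was not tested). Counting known models only, the genes called fell to 714 in K562 against HepG2, 459 in K562 against GM12878 and 777 in HepG2 against GM12878, where fewer genes and reads were tested, against 2105, 1371 and 2348 with all models. With no filter on low counts, 3298 genes were called in K562 against HepG2 and 3746 in HepG2 against GM12878. Leaving out 1 library at a time gave 1675 to 2503, 1114 to 1855 and 1898 to 2979 calls in the same order of comparisons. With known models only, the HBZ share of alpha-cluster reads was 35.5%, against 37.9% with all models, since HBZ has more reads in other classes.

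With the replicate number as a block, 1998, 1291 and 2309 genes were called in that order, and no call of a member changed. With only HepG2 and GM12878 in the fit, no member passed the filter, so that alternative gave no value for them. Deviations of same-numbered libraries from their line means correlated at -0.05 to 0.04 over 7 pairs. The deviations of the 2 K562 libraries mirror each other, so these values cannot tell whether the numbers mark a shared batch.

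Depth limits HBQ1 and HBM most. The HBQ1 difference between HepG2 and GM12878 rests on 10 reads, and GM12878 has the highest floor.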
